A study of Mus musculus with 9 samples.

Results

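The SOX factors other than Sox2 were followed in the mouse embryonic stem (ES) cell line D3. The 10 genes were chosen by symbol, with earlier results of these data known: Sox1, Sox3, Sox4, Sox7, Sox9, Sox11, Sox12, Sox15, Sox17 and Sox21. All 10 were found among the 24421 genes of the count table, and all 10 passed the filter on low counts, which left 14513 genes for testing. RNA sequencing libraries were compared between 3 groups of 3. In LAMP2A+DM-αKG, cells labelled as overexpressing LAMP2A were given 4 mM DM-αKG for 72 h. In LAMP2A, cells labelled as overexpressing had no such treatment, and in VT, cells stably carried the empty pCDH vector. LAMP2A is the splice form of LAMP2 that takes proteins into the lysosome one by one, guided by a chaperone. DM-αKG is a cell-permeable ester of α-ketoglutarate, an intermediate of the citric acid cycle. Cultures of every group were feeder-free, on gelatin-coated dishes, with fetal bovine serum and LIF, the cytokine that holds mouse ES cells undifferentiated. Neither the clonality of the lines nor the origin of the 3 libraries of a group (separate cultures or not) is labelled, so a p-value here speaks only of spread between libraries, which may be technical.

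SOX proteins are transcription factors that bind the minor groove of DNA through an HMG box and bend it, and most act together with a partner factor on the neighbouring site. They fall into lettered groups by the sequence of that box. SOXB1 factors (Sox1, Sox3 and Sox2) hold neural progenitors and, for Sox2, pluripotency, SOXB2 factors (Sox21) oppose them, SOXC factors (Sox4, Sox11 and Sox12) act in many embryonic progenitors, SOXE (Sox9) in cartilage, testis and neural crest, SOXF (Sox7 and Sox17) in endoderm and vessels, and SOXG is Sox15 alone. In ES cells Sox2 is the partner of OCT4, while most of the others are known for the lineages that ES cells give rise to.

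The libraries held 23636074 to 32809875 counted reads. Lamp2, the overexpressed gene, lay at 95.4 to 99.3 CPM (read counts scaled to the library total) in LAMP2A+DM-αKG, at 403 to 407 CPM in LAMP2A and at 56.9 to 60.0 CPM in VT, which fits the labels of LAMP2A and VT. The libraries labelled LAMP2A+DM-αKG showed the overexpression in their label only weakly. Their Lamp2 was 4.16-fold lower than in LAMP2A (log2 fold change -2.06, SE 0.031, edgeR adjusted p = 3.98e-35). Against VT it was 1.67-fold higher (log2 fold change 0.74, SE 0.035, adjusted p = 4.55e-19). For every difference between LAMP2A+DM-αKG and LAMP2A given here, treatment and the lower Lamp2 level cannot be told apart, and "treated" or "with DM-αKG" means only the libraries so labelled. The summed level of 8 markers of pluripotent stem cells was 5059 to 5098 CPM in LAMP2A+DM-αKG, 1641 to 1647 CPM in LAMP2A and 6168 to 6586 CPM in VT, and no marker was at 0 in any group. Of these 8, 7 were lower in LAMP2A against VT at an adjusted p under 0.05 (edgeR), while Fut4 was higher (log2 fold change 3.33). With DM-αKG the same 7 were higher and Fut4 was lower (log2 fold change -2.23). Of all genes 85.1% and 83.2% passed in these comparisons. The summed level of 6 smooth muscle markers was 18.8 to 20.7 CPM in LAMP2A+DM-αKG, 2026 to 2064 CPM in LAMP2A and 21.0 to 23.2 CPM in VT. That of 10 fibroblast and feeder cell markers was 435 to 447, 1138 to 1147 and 362 to 383 CPM in the same order of groups. Vim made up most of this sum, at 435, 1016 and 361 CPM, while Col1a1 had 0.990, 59.2 and 0.968 CPM. Over the 8 of these markers tested, the median log2 fold change was 5.78 in LAMP2A against VT. Fap was at 0 in LAMP2A and VT, and Lum was at 0 in VT. Of the fibroblast markers tested, 7 of 8 rose and 1 fell in LAMP2A against VT at the same threshold, and all 6 smooth muscle markers rose. Of all genes 43.0% were higher and 42.1% lower. Acta2, Actg2, Myh11, Col1a2, Col3a1, Dcn and Postn passed the filter on low counts only through the LAMP2A libraries, which fixed their direction. The part of these markers in the SOX results was not tested. In such bulk samples, fewer cells of a type and less RNA per cell cannot be told apart.

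With LAMP2A overexpression, 8 of the 10 SOX factors rose against VT and 2 fell, Sox7 and Sox15. Across all genes 85.1% passed the same threshold (adjusted p under 0.05, edgeR quasi-likelihood F-test), with 43.0% up and 42.1% down, so that passing by itself sets no gene apart here. At a change of at least 2-fold, 5 of the 10 were higher (Sox3, Sox4, Sox9, Sox11 and Sox17) against 19.8% of all genes, and 1 was lower (Sox15) against 9.61% of all genes, 6 in all beside 29.4% of all genes. Their median log2 fold change was 1.06, beside 0.0081 over all genes tested. With DM-αKG, 7 of the 10 fell against untreated LAMP2A cells and 3 rose (Sox7, Sox15 and Sox21). Of all genes 83.2% passed in this comparison, 41.1% higher and 42.1% lower. At 2-fold or more, 6 of the 10 were lower against 17.6% of all genes, and Sox7 was higher against 8.06%, 7 in all beside 25.7% of all genes. The median log2 fold change of the 10 was -1.31, beside -0.0012 over all genes tested. Both comparisons share the LAMP2A libraries, so their values stand side by side and are not independent. Sox9 passed the filter on low counts only through the LAMP2A libraries, which fixed its direction in both comparisons. The counts of members given here include it.

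**Figure D1:**
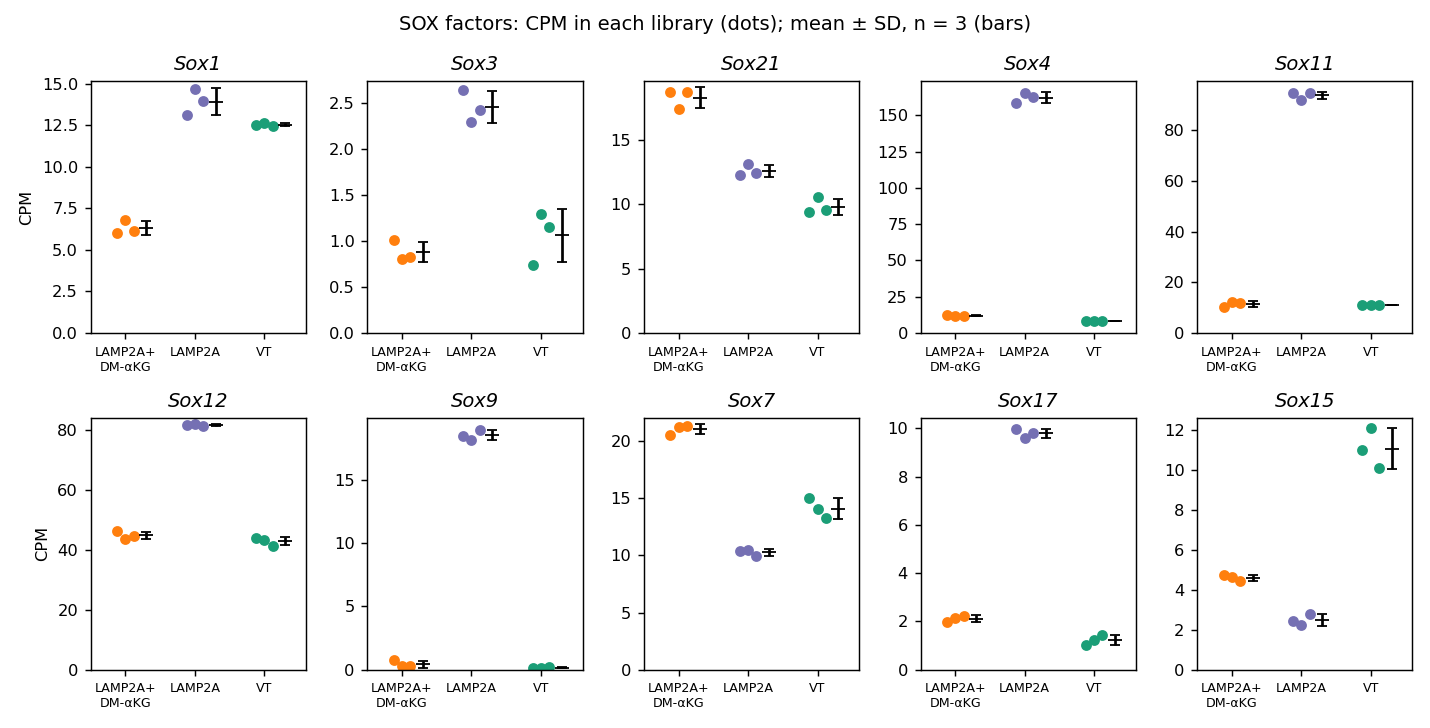
Level of each of the 10 SOX factors in CPM (vertical axes, from 0, each panel with its own scale) in the 3 libraries of LAMP2A+DM-αKG, LAMP2A and VT (dots, with mean ± SD beside them). Sox4, Sox11, Sox12, Sox9, Sox17 and Sox3 are highest in LAMP2A, Sox7 and Sox21 in LAMP2A+DM-αKG, and Sox15 in VT.

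The SOXC factors rose together in LAMP2A cells and were lower again with DM-αKG, though by unlike amounts. Sox4 (mm10 chromosome 13, 28948919–28953713, 1 exon), which acts in neural, cardiac and lymphoid progenitors, had 12.5, 12.0 and 11.7 CPM in LAMP2A+DM-αKG, 158, 165 and 163 CPM in LAMP2A and 8.27, 8.21 and 8.29 CPM in VT. The groups do not overlap, and every LAMP2A library stood far above the other 6. Its log2 fold change was 4.29 (SE 0.046, adjusted p = 2.59e-39) in LAMP2A against VT and -3.75 (SE 0.043, adjusted p = 1.87e-38) in LAMP2A+DM-αKG against LAMP2A. The level left with DM-αKG was still 1.46-fold that of VT (log2 fold change 0.54, SE 0.069, adjusted p = 3.44e-08).

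Sox11 (chromosome 12, 27334264–27342574, 1 exon), a factor of immature neurons and mesenchyme with the longest exon sequence of the 10, had 10.3, 12.3 and 11.7 CPM in LAMP2A+DM-αKG, 94.6, 92.1 and 94.6 CPM in LAMP2A and 11.0, 11.2 and 11.0 CPM in VT. It rose 8.44-fold in LAMP2A (log2 fold change 3.08, SE 0.050, adjusted p = 3.23e-34) and was 8.16-fold lower with DM-αKG (log2 fold change -3.03, SE 0.049, adjusted p = 4.65e-34). Treated and VT libraries overlapped, with a log2 fold change of 0.05 (SE 0.070, adjusted p = 0.576) between them. Sox12 (chromosome 2, 152393611–152398063, 1 exon), the SOXC factor with the weakest single-knockout effects in mice, had 46.2, 43.7 and 44.7 CPM in LAMP2A+DM-αKG, 81.8, 82.0 and 81.3 CPM in LAMP2A and 43.8, 43.4 and 41.4 CPM in VT. It was the most counted SOXC factor in VT and moved least, by a log2 fold change of 0.93 (SE 0.037, adjusted p = 3.13e-22) in LAMP2A and -0.87 (SE 0.037, adjusted p = 2.45e-21) with DM-αKG. Treated and VT libraries of Sox12 overlapped as well (log2 fold change 0.07, SE 0.041, adjusted p = 0.170).

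The sequences before the starts of the SOXC genes are shown because the 3 moved together, and that of Sox15 because it moved the other way. RefSeq promoters on GRCm38.p6 matched 6 of the 10 symbols (Sox1, Sox4, Sox11, Sox12, Sox15 and Sox21). Each line gives the 250 bases before the RefSeq start, 5′ to 3′ on the strand of the gene. Capitals mark matches on either strand to 7 motifs. These were the TATA box motif TATAAA, the CCAAT box motif, the GC box motif GGGCGG, and ATGCAAAT, the octamer bound by OCT factors. The SOX core motif was searched as ACAAAG, and its other common form as ACAATG. The motif of TEAD factors was searched as GGAATG. For Sox15 the GENCODE vM21 gene begins further downstream, at 69655314.
Sox4 (chr13:28953700-28953949, - strand): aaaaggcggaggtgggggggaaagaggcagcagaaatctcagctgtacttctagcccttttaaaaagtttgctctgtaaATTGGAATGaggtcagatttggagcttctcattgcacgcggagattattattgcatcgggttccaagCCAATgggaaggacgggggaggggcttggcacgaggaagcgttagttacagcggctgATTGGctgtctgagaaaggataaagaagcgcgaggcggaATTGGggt
Sox11 (chr12:27342719-27342968, - strand): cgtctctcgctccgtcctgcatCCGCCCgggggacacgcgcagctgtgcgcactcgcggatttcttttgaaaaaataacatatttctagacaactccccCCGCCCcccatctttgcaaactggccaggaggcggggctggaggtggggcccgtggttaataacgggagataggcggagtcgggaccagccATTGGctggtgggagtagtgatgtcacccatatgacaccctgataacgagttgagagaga
Sox12 (chr2:152398047-152398296, - strand): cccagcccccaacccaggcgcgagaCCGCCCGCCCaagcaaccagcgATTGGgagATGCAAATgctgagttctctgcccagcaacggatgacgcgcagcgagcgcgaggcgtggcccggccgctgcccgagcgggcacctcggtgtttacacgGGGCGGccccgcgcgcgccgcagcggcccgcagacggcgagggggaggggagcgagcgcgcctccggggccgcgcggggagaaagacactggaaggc
Sox15 (chr11:69654787-69655036, + strand): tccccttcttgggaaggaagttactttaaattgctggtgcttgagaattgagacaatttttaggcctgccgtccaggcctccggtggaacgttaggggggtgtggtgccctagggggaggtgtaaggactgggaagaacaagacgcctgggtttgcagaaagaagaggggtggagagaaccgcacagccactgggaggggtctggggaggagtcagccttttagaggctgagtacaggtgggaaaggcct

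Each SOXC promoter held the CCAAT motif: Sox4 at 4 places, Sox11 and Sox12 at 1 place each. CCAAT was found in 33.8% of the 32851 RefSeq promoter windows of that length. GC boxes were found at 2 places before Sox11, 3 before Sox12 and 0 before Sox4, beside 32.7% of all promoters with at least 1. Sox12 alone of the 6 held the octamer, 195 bases before the start (1.6% of all promoters), and Sox4 alone the TEAD motif, 168 bases before the start and overlapping a CCAAT match (12.6% of all promoters). In the Sox12 sequence, 2 GC boxes overlap each other. Neither SOX core motif nor TATAAA was found in any of the 6 windows, beside 16.5% (ACAAAG), 10.7% (ACAATG) and 12.4% (TATAAA) of all promoters. The Sox15 window held none of the 7 motifs. It held 5 CpG dinucleotides, against 35 in Sox12, 17 in Sox11 and 11 in Sox4, with a median of 6 over all promoters. Sox21, which rose in LAMP2A, also had none of the 7 motifs, with 17 CpG dinucleotides. Sox1, which differed little between LAMP2A and VT, had CCAAT at 1 place and GC boxes at 3, with 29 CpG dinucleotides. A link between motifs and direction was not tested. A match is a description of letters and not a bound site.

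Sox9 had the widest range of the 10. Sox9 (chromosome 11, 112782224–112787760) directs cartilage formation and is also used in neural crest, testis and many epithelial progenitors. It had 0.757, 0.270 and 0.299 CPM in LAMP2A+DM-αKG, 18.5, 18.2 and 19.0 CPM in LAMP2A and 0.165, 0.111 and 0.186 CPM in VT. In reads these were 18, 7 and 9 counts with DM-αKG, 607, 585 and 508 in LAMP2A and 4, 3 and 5 in VT, so that the LAMP2A libraries stood apart while the other 6 lay near the limit of counting. The fitted change was 117-fold in LAMP2A (log2 fold change 6.87, adjusted p = 1.37e-28). In the authors' deposited table it was 6.92 with a standard error of 0.425. With DM-αKG Sox9 was 43.0-fold lower (log2 fold change -5.43, SE 0.139, adjusted p = 4.78e-28). The direction of both changes was fixed by the filter on low counts, which Sox9 passed only through the LAMP2A libraries.

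The SOXF factors went opposite ways. Sox17 (chromosome 1, 4490931–4497354), needed for definitive endoderm and expressed in primitive endoderm and arteries, had 1.98, 2.16 and 2.23 CPM in LAMP2A+DM-αKG, 9.97, 9.60 and 9.82 CPM in LAMP2A and 1.03, 1.22 and 1.45 CPM in VT. None of the 3 groups overlapped, with treated cells between LAMP2A and VT. Sox17 rose 7.88-fold in LAMP2A (log2 fold change 2.98, SE 0.117, adjusted p = 1.88e-22) and was 4.59-fold lower with DM-αKG (log2 fold change -2.20, SE 0.103, adjusted p = 3.47e-20).

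Sox7 (chromosome 14, 63943673–63950732), its close relative in primitive endoderm and early blood vessels, had 20.5, 21.2 and 21.4 CPM in LAMP2A+DM-αKG, 10.4, 10.5 and 9.93 CPM in LAMP2A and 15.0, 14.1 and 13.2 CPM in VT. Every LAMP2A library was below every VT library, and every treated library above both. Sox7 was 1.37-fold lower in LAMP2A (log2 fold change -0.45, SE 0.066, adjusted p = 1.48e-07) and 2.04-fold higher with DM-αKG (log2 fold change 1.03, SE 0.061, adjusted p = 3.02e-17).

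Among the SOXB factors each had its own pattern. Sox3 (X chromosome, 60891366–60893430), a neural progenitor and pituitary factor, had 1.01, 0.809 and 0.832 CPM in LAMP2A+DM-αKG, 2.65, 2.30 and 2.43 CPM in LAMP2A and 0.741, 1.29 and 1.15 CPM in VT. Its LAMP2A libraries were the highest (log2 fold change against VT 1.19, SE 0.179, adjusted p = 2.15e-07), and treated cells overlapped VT. With DM-αKG its log2 fold change was -1.48 (SE 0.187, adjusted p = 7.21e-09).

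Sox1 (chromosome 8, 12395295–12400126), the earliest SOXB1 marker of committed neuroectoderm, had 6.02, 6.78 and 6.15 CPM in LAMP2A+DM-αKG, 13.1, 14.7 and 14.0 CPM in LAMP2A and 12.5, 12.6 and 12.5 CPM in VT. LAMP2A and VT differed little, by a log2 fold change of 0.15 (SE 0.065, adjusted p = 0.0314), and that call did not hold in DESeq2 (adjusted p = 0.117), in the authors' deposited table (adjusted p = 0.116), or without VT replicate 1, VT replicate 3, LAMP2A replicate 2 or LAMP2A replicate 3 (adjusted p = 0.0615, 0.0667, 0.172 and 0.0587 in edgeR). With DM-αKG Sox1 was 2.20-fold lower than in LAMP2A (log2 fold change -1.14, SE 0.075, adjusted p = 5.94e-16), and 1.98-fold lower than in VT (log2 fold change -0.99, SE 0.078, adjusted p = 6.5e-13).

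Sox21 (chromosome 14, 118233232–118237030), a SOXB2 repressor that promotes neuronal differentiation, had 18.8, 17.4 and 18.7 CPM in LAMP2A+DM-αKG, 12.3, 13.1 and 12.4 CPM in LAMP2A and 9.38, 10.5 and 9.52 CPM in VT. It was higher in LAMP2A than in VT (log2 fold change 0.36, SE 0.070, adjusted p = 1.7e-05) and higher again with DM-αKG (log2 fold change 0.54, SE 0.061, adjusted p = 8.52e-10), the single member of the 10 that passed upward in both comparisons. Sox1 and Sox21 stood apart from VT in treated cells in opposite directions.

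Sox15 (chromosome 11, 69655314–69656727), the SOXG factor, is expressed in ES cells and studied in muscle progenitors and placenta. It had 4.75, 4.62 and 4.46 CPM in LAMP2A+DM-αKG, 2.43, 2.24 and 2.80 CPM in LAMP2A and 11.0, 12.1 and 10.1 CPM in VT. The groups did not overlap, and treated cells lay nearer to LAMP2A than to VT. Sox15 was 4.48-fold lower in LAMP2A (log2 fold change -2.16, SE 0.101, adjusted p = 2.7e-20) and 1.86-fold higher with DM-αKG than without (log2 fold change 0.89, SE 0.123, adjusted p = 4.59e-08).

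**Figure D2:**
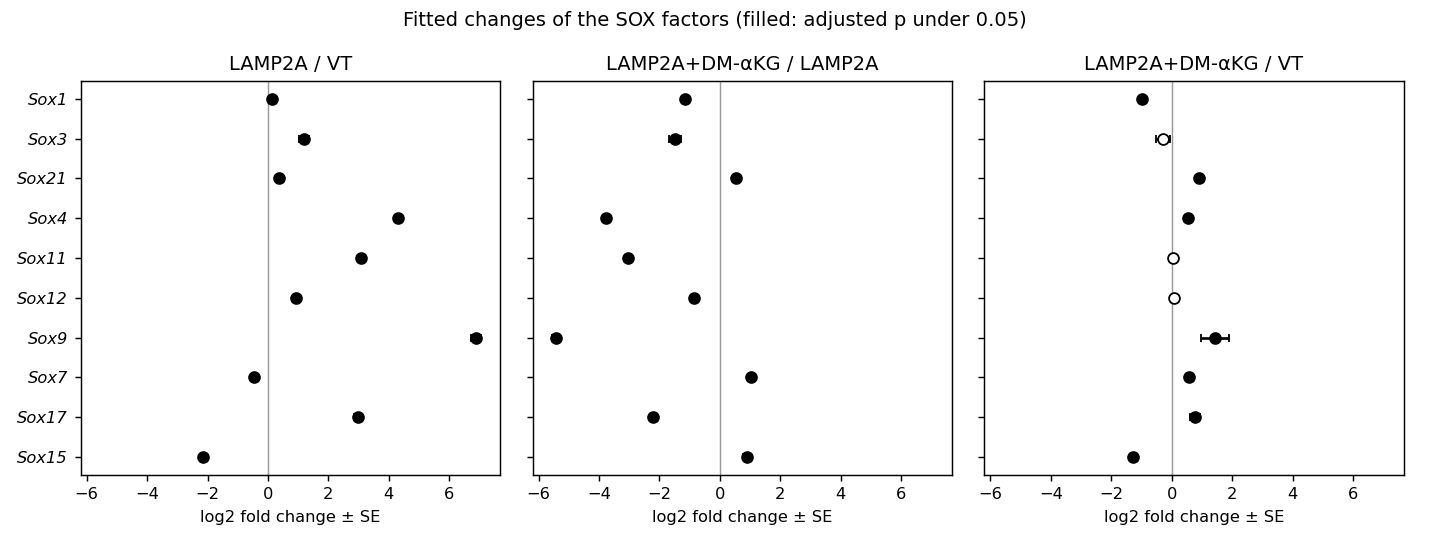
Log2 fold change ± SE (horizontal axes) of the 10 SOX factors in LAMP2A against VT, LAMP2A+DM-αKG against LAMP2A, and LAMP2A+DM-αKG against VT, with filled points where the adjusted p was under 0.05. Sox9 lies farthest out, at 6.87 in LAMP2A against VT and at -5.43 in LAMP2A+DM-αKG against LAMP2A, and Sox3, Sox11 and Sox12 have open points in LAMP2A+DM-αKG against VT.

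Set against VT, treated cells differed in 7 of the 10 factors, 5 higher and 2 lower, beside 58.7% of all genes (29.3% in each direction). The 5 higher ones were Sox4, Sox7, Sox9, Sox17 and Sox21, with log2 fold changes of 0.54, 0.58, 1.45, 0.78 and 0.90. The SE of these ran up to 0.46 and the adjusted p up to 0.00763, both for Sox9. Sox1 and Sox15 were lower, Sox15 by 2.41-fold (log2 fold change -1.27, SE 0.091, adjusted p = 4.77e-14). At 2-fold or more 2 of the 10 passed, Sox9 higher and Sox15 lower, beside 6.55% of all genes (3.93% higher and 2.63% lower). The Sox9 difference rested on few reads: without LAMP2A+DM-αKG replicate 1, which held 18 of the 34 counts, the log2 fold change was 0.88 and the adjusted p 0.157. Sox9 passed the filter on low counts only through the LAMP2A libraries, and with the 6 libraries of LAMP2A+DM-αKG and VT alone it was not tested. For Sox3 the log2 fold change was -0.29 (SE 0.234, adjusted p = 0.296). The misses for Sox3, Sox11 and Sox12 do not show that treated and VT cells had the same level.

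Divided by exon length in GENCODE vM21, which allows levels to be set side by side between genes, the order of the 10 differed between groups. In LAMP2A+DM-αKG it was led by Sox12 at 10.1 ± 0.28 CPM per kb, followed by Sox7 (6.38 ± 0.13), Sox15 (5.36 ± 0.17), Sox21 (4.81 ± 0.21) and Sox4 (2.51 ± 0.078), with SD over 3 libraries. In LAMP2A, Sox4 came first at 33.8 ± 0.74 CPM per kb, then Sox12 (18.4 ± 0.082), Sox11 (11.3 ± 0.17) and Sox9 (4.48 ± 0.098). In VT, Sox15 came first at 12.9 ± 1.17 CPM per kb, with Sox12 at 9.63 ± 0.29 and Sox7 at 4.27 ± 0.27. Sox9, last of the 10 in treated and VT cells (0.107 ± 0.066 and 0.037 ± 0.0093 CPM per kb), was the fourth in LAMP2A. Neighbours in the order whose libraries overlapped were Sox11 and Sox1, and Sox17 and Sox3, in LAMP2A+DM-αKG; Sox7 and Sox15, and Sox15 and Sox1, in LAMP2A; and Sox1 and Sox21 in VT. The single exon block of Sox11 is 8311 bases long and the exons of Sox15 span 861, so the order per length differs from the order by CPM.

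**Figure D3:**
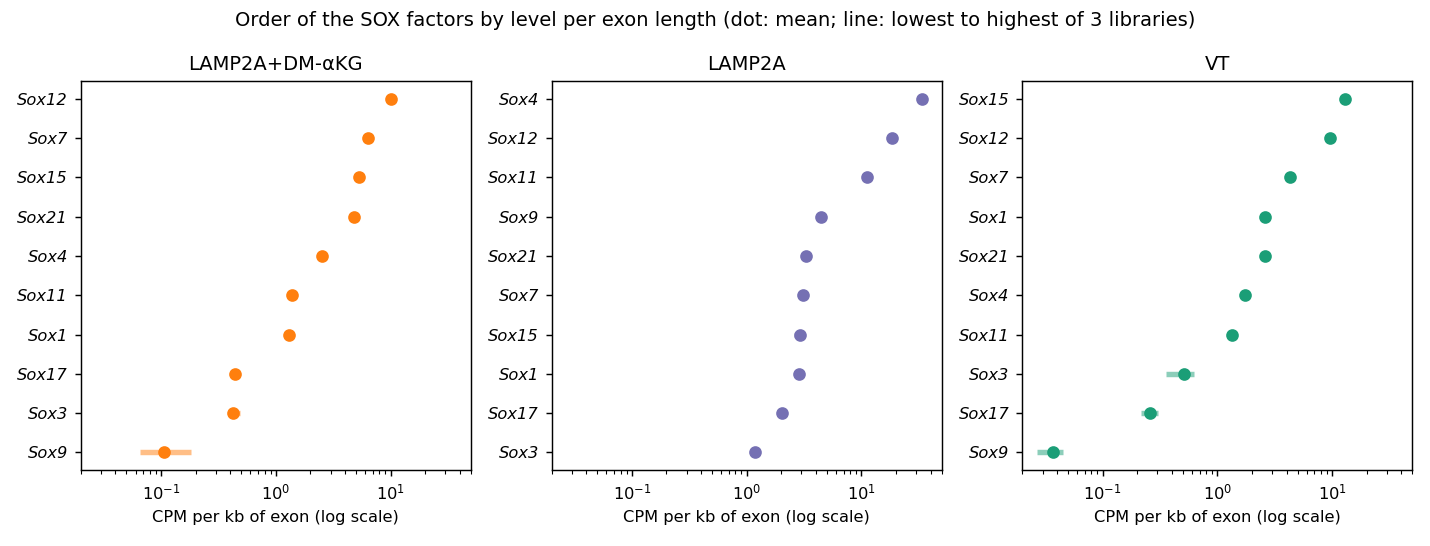
Level in CPM per kb of exon (horizontal log axes) of the 10 SOX factors in LAMP2A+DM-αKG, LAMP2A and VT, each panel sorted by its own mean (dot), with a line from the lowest to the highest of 3 libraries. Sox4 leads in LAMP2A at 33.8, Sox12 in LAMP2A+DM-αKG at 10.1 and Sox15 in VT at 12.9.

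Sox2 itself stayed the most counted SOX gene in each group, at 398 ± 9.51 CPM in LAMP2A+DM-αKG, 231 ± 2.02 CPM in LAMP2A and 431 ± 12.6 CPM in VT (SD, n = 3). Its share of all reads of 19 SOX genes was 72.4 ± 0.74% in LAMP2A+DM-αKG, 30.6 ± 0.29% in LAMP2A and 73.2 ± 0.82% in VT. The 3 libraries of LAMP2A lay below all others, which gives an exact permutation p of 0.1 in either comparison, the smallest that 3 against 3 allows (two-sided). The 10 factors together had 122 ± 0.77 CPM in LAMP2A+DM-αKG, 408 ± 3.25 CPM in LAMP2A and 112 ± 3.07 CPM in VT. Sox4 alone took 2.19 ± 0.073% of SOX reads in LAMP2A+DM-αKG, 21.4 ± 0.40% in LAMP2A and 1.40 ± 0.036% in VT. Counted per kb, the share of Sox2 was 83.0 ± 0.59% in LAMP2A+DM-αKG, 51.1 ± 0.37% in LAMP2A and 81.8 ± 0.59% in VT. Between treated and VT cells the share differed by -0.74 percentage points in reads (exact permutation p = 0.2). Per kb it differed by 1.14 points (exact permutation p = 0.1), so that its direction turned with the unit.

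**Figure D4:**
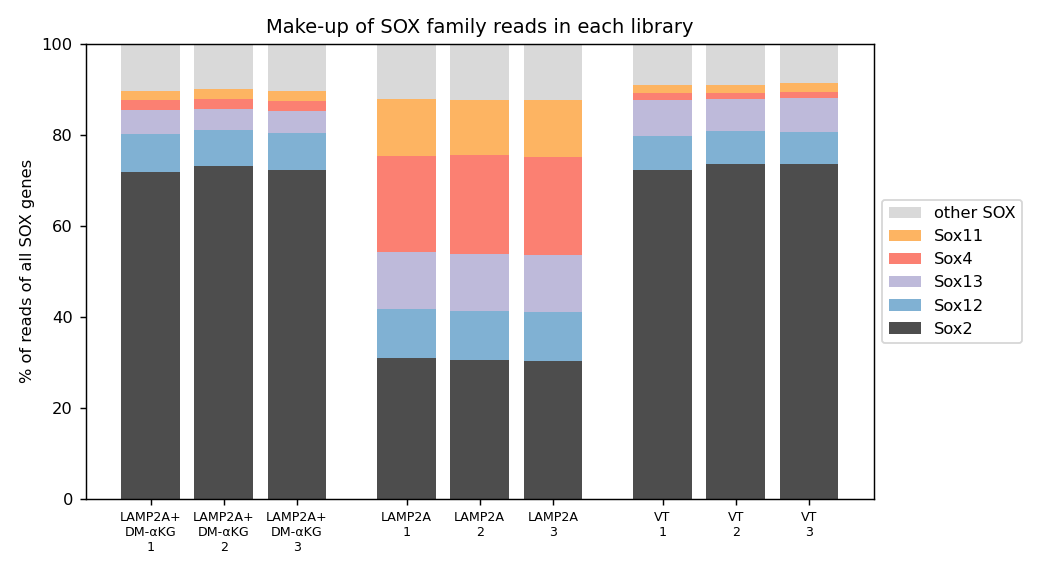
Share of the reads of 19 SOX genes (vertical axis, percent) taken by Sox2, Sox12, Sox13, Sox4, Sox11 and all other SOX genes in each library of LAMP2A+DM-αKG, LAMP2A and VT. Sox2 fills 72.4% on average in LAMP2A+DM-αKG, 30.6% in LAMP2A and 73.2% in VT.

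Of 9 further SOX genes, Sox14 had no count in any library and 8 were tested. In LAMP2A against VT 6 rose and 1 fell (Sox2), and with DM-αKG 6 fell and 1 rose (Sox2), near the 85.1% and 83.2% of all genes that passed in these comparisons. The SOXD factors, which lack an activation domain and work beside Sox9 in cartilage, were among them. Sox6 had 0.902 ± 0.086 CPM in LAMP2A+DM-αKG, 18.4 ± 0.33 CPM in LAMP2A and 0.727 ± 0.076 CPM in VT. Per kb of exon, Sox6 had 1.24 CPM in LAMP2A, below the 4.48 of Sox9. Sox13 had 27.0 ± 1.37, 95.0 ± 0.47 and 43.8 ± 2.37 CPM in the same order of groups, and fell below VT in treated cells (log2 fold change -0.70, SE 0.047, adjusted p = 9.6e-15). Sox5 lay at 0.059 ± 0.052, 1.49 ± 0.073 and 0.181 ± 0.068 CPM. Sox10, Sox18 and Sox30 reached at most 0.878 CPM on average in any group, and Sox8 did not pass in any of the 3 comparisons (adjusted p = 0.201, 0.567 and 0.0992). Sox5, Sox10, Sox18 and Sox30 passed the filter on low counts only through the LAMP2A libraries, and the counts above include them.

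Genes linked to each SOX group were then counted, with lists drawn up from textbook roles. Earlier results of these data were known when the lists were chosen. Tead2 and Pax6 are on 2 of the lists each. Of the further SOX genes above, Sox5 and Sox6 are also on the cartilage list and Sox18 is on the endothelial list. Over all genes tested, 43.0% were higher and 42.1% lower in LAMP2A against VT, and 41.1% higher and 42.1% lower with DM-αKG, with medians near 0. In either direction, 85.1% and 83.2% passed, the background for every list below. Some list genes passed the filter on low counts only through the LAMP2A libraries, among them Afp, Ttr, Cer1, Hapln1, Matn4, Sox5, Sox18, Fli1, Vcam1, Zic1 and Mef2c. Their direction in both comparisons was thereby fixed, and the counts of genes called include them. For SOXF endoderm genes, 21 of 22 rose in LAMP2A and 21 of 22 were lower with DM-αKG, with median log2 fold changes of 3.06 and -2.37. These include Afp, Ttr and Cer1, which averaged 0.039 CPM or less in treated and VT cells. The basement membrane genes Col4a2, Lamb1 and Col4a1 had log2 fold changes of 3.12, 3.10 and 2.61 in LAMP2A, and the endocytic receptor gene Cubn 4.61. With DM-αKG these were -1.96, -2.84, -1.51 and -5.06. Foxa3 was the member that fell in LAMP2A (log2 fold change -0.45, adjusted p = 0.0479). Its adjusted p with DM-αKG was 0.436. The medians were the same with genes at 0 in a group set at a floor of 3 counts over that group. Against VT, treated cells had 12 of the 22 higher and 2 lower, beside 29.3% of all genes in each direction and 58.7% in all, with a median log2 fold change of 0.56 (0.51 with such genes at their floor).

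SOXF endothelial genes were divided in LAMP2A, with 7 higher and 8 lower of 16 tested, and with DM-αKG 5 were higher and 7 lower (median log2 fold changes -0.61 and -0.16). Beside this, 85.1% and 83.2% of all genes passed. Flt1, a VEGF receptor gene, had 1.23 ± 0.22 CPM in LAMP2A+DM-αKG, 37.5 ± 0.67 CPM in LAMP2A and 0.498 ± 0.018 CPM in VT. The adhesion gene Pecam1 (66.5, 19.9 and 74.4 CPM), the receptor gene Notch4 (56.9, 12.7 and 49.3 CPM) and the guidance receptor gene Robo4 (16.0, 4.39 and 16.8 CPM) ran the other way in the same order of groups. Pecam1 is also expressed by ES cells. The endothelial transcription factor gene Etv2 averaged 0.550 CPM or less in every group.

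For SOXE cartilage genes, which include Sox5 and Sox6, 12 of 14 rose and 2 fell in LAMP2A, and with DM-αKG 10 were lower and 2 higher (medians 1.64 and -1.40). The share of all genes that passed was 85.1% and 83.2%, so that passing by itself sets these genes little apart. Hapln1, Matn4 and Sox5 passed the filter on low counts only through the LAMP2A libraries. Col2a1, the main cartilage collagen and a direct SOX9 target, had 1.41 ± 0.36 CPM in LAMP2A+DM-αKG, 72.2 ± 3.16 CPM in LAMP2A and 1.57 ± 0.28 CPM in VT. Col9a2 and Col11a1 had log2 fold changes of 1.62 and 1.65 in LAMP2A and -1.14 and -2.21 with DM-αKG. The 2 that fell in LAMP2A were Acan, the cartilage proteoglycan aggrecan (log2 fold change -1.46), and Matn1, cartilage matrilin (-2.09), and both were higher with DM-αKG (1.08 and 2.26). Both are also classical SOX9 targets.

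For SOXB neural progenitor genes, 6 of 8 tested rose and 2 fell (Notch1 and Ncan) in LAMP2A, and 6 were lower and 2 higher with DM-αKG (medians 1.57 and -1.03). For this list and the SOXC list below, the shares of all genes that passed were 85.1% and 83.2%. Nes, an intermediate filament of neural progenitors, had 50.3 ± 0.61 CPM in LAMP2A+DM-αKG, 265 ± 3.79 CPM in LAMP2A and 47.4 ± 1.75 CPM in VT. The stem cell surface gene Prom1 and the transcription factor genes Zic1 and Pax6 had log2 fold changes of 4.35, 4.48 and 1.70 in LAMP2A and -3.51, -4.51 and -1.59 with DM-αKG. Of the neuronal genes linked to SOXC that were tested, most ran against Sox4 and Sox11: 5 of 8 fell and 2 rose in LAMP2A, and 5 were higher and 2 lower with DM-αKG (medians -0.40 and 0.70). Dcx and Nhlh1 are also listed but did not pass the filter on low counts. Dcx had 25 counts in all in LAMP2A and 0 in LAMP2A+DM-αKG and VT, the direction of Sox4 and Sox11. The RNA-binding protein gene Elavl3 had log2 fold changes of -2.78 in LAMP2A and 3.20 with DM-αKG, the tubulin gene Tubb3 -0.42 and 0.95, and Stmn2, a microtubule regulator of neurons, -1.38 and 0.92. Tead2, a reported SOXC target also listed as a competitor, was among the 2 that rose, with 79.7 ± 1.73 CPM in LAMP2A+DM-αKG, 235 ± 1.48 CPM in LAMP2A and 96.5 ± 5.74 CPM in VT.

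Of 13 tested partners and competitors of SOX factors, 11 rose and 2 fell (Pou5f1 and Pou2f1) in LAMP2A, and with DM-αKG 11 were lower and 2 higher, again Pou5f1 and Pou2f1 (medians 1.06 and -0.96). Passing by itself sets these little apart, with 85.1% and 83.2% of all genes past the threshold. Pou5f1 encodes OCT4, the partner of SOX2 in ES cells, and had 980.2 ± 7.27 CPM in LAMP2A+DM-αKG, 323 ± 4.65 CPM in LAMP2A and 1386 ± 89.0 CPM in VT. Lef1, which encodes an HMG-box factor of the WNT pathway, had 1.53 ± 0.30, 8.26 ± 0.62 and 0.787 ± 0.15 CPM in the same order. Foxk1, a partner of SOX15 in muscle progenitors, had log2 fold changes of 0.94 in LAMP2A and -0.80 with DM-αKG, the opposite signs to those of Sox15.

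**Figure D5:**
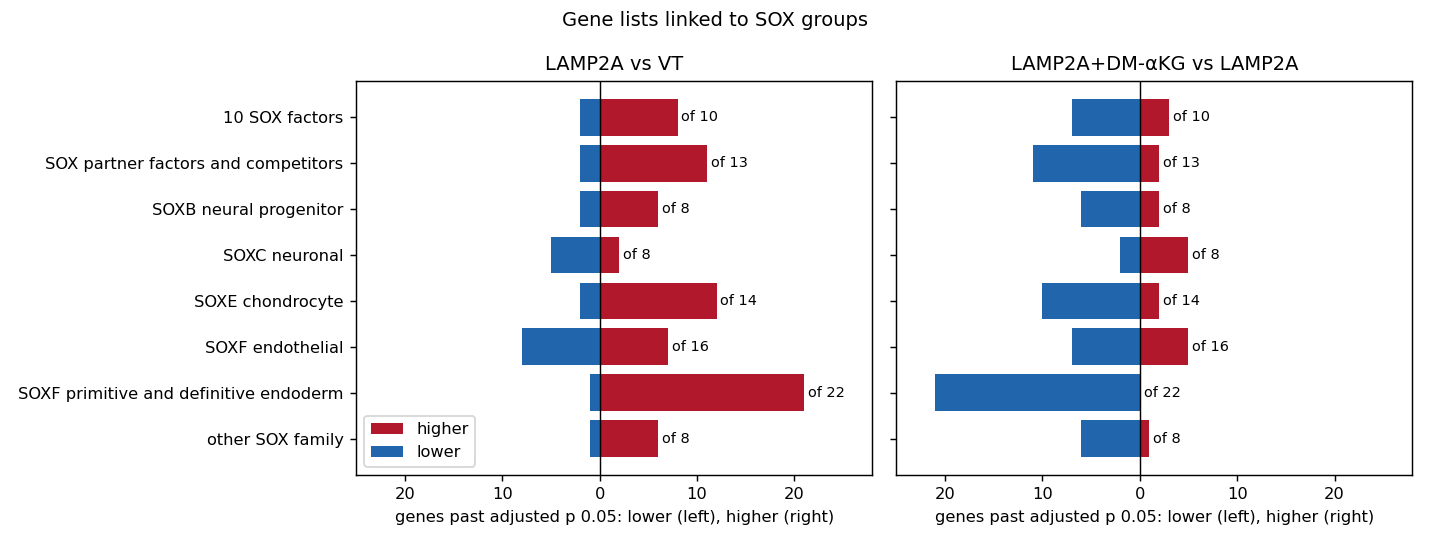
Number of genes past an adjusted p of 0.05 in LAMP2A against VT and in LAMP2A+DM-αKG against LAMP2A (horizontal axes, lower to the left and higher to the right of 0) for the 10 SOX factors and 7 gene lists, with the number tested beside each bar. SOXF endoderm genes have 21 of 22 higher in LAMP2A and 21 of 22 lower with DM-αKG, while the SOXC neuronal list has 5 of 8 lower and 5 of 8 higher. Genes that passed the filter on low counts only through LAMP2A are included. Over all genes, 85.1% and 83.2% passed in the 2 comparisons.

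The genes with the pattern closest to each factor were found by Euclidean distance of mean-centred log2 CPM over the 9 libraries, among 12257 candidates averaging 1 CPM or more. Nearest to Sox4 were Krt8, a simple epithelial keratin, and Npnt, a basement membrane protein (distances 0.359 and 0.363). Nearest to Sox11 were Plxna2 and Lpar6 (0.194 and 0.206), to Sox12 Mapre2 and Cd81 (0.0932 and 0.0934) and to Sox9 Maml3 and P3h2 (0.844 and 0.978). Nearest to Sox17 were D8Ertd82e and Tdrd7 (0.356 and 0.375), to Sox7 Mib2 and Cdk5r2 (0.140 and 0.142) and to Sox15 Pqlc1 and Exoc3l (0.273 and 0.343). For the SOXB factors they were Stmn1 and Draxin for Sox1 (0.206 and 0.242), Prdm11 and Fam107b for Sox3 (0.465 and 0.507) and Mmp11 and Ybx2 for Sox21 (0.204 and 0.208). Krt8 had 48.3 CPM in LAMP2A+DM-αKG, 619 CPM in LAMP2A and 37.0 CPM in VT, and Stmn1, the gene closest to Sox1, had 33.9, 69.7 and 63.4 CPM. With 9 libraries in 3 groups, likeness rests mostly on the group means.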

How the data were processed

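Reads were counted in 9 libraries of D3 ES cells prepared with a stranded mRNA kit, per the labels' protocols. The authors deposited raw counts per gene symbol, and the submitters' processing notes list STAR 2.7.1, HTSeq 0.11.2, DESeq2 and mm10. For annotation and strand setting, nothing is given in the sources used here. In GENCODE vM21, Sox4, Sox17 and Sox21 overlap non-coding genes of the opposite strand that are not analysed here, and Sox15 shares 31 bases with Mpdu1. Sox1 and Sox2 lie within the transcripts Sox1ot and Sox2ot of the same strand. The counts of these genes, and with them the share of Sox2, carry some doubt. Tables the authors deposited beside them hold a mean signal, log2 fold changes, a test score and p-values per gene, per the file headers, and were used only for comparison. Largest differences from the log2 fold changes fitted here were 0.05 and 0.01 for the 10 factors.

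The fit used edgeR 4.0.16 under R 4.3.3 (filterByExpr, TMM, robust glmQLFit, glmQLFTest), with all 9 libraries in 1 model of 3 group means and 6 residual degrees of freedom. Benjamini-Hochberg adjustment ran over all 14513 genes tested, at 0.05. SE was obtained by dividing the size of a log2 fold change by √F, and is too small where counts are few. CPM use TMM-scaled library totals. For distances, log2 CPM had a prior count of 1. The fit was tested on simulated data in which a small set of genes changed, in the LAMP2A libraries alone. That test cannot speak for scaling or false calls where 85.1% of all genes passed, as in LAMP2A against VT. Named were the 10 factors, the other SOX genes, Lamp2, the 4 genes of each list with the smallest p in LAMP2A against VT and the 2 nearest genes of each factor, leaving out predicted, RIKEN and clone genes. Other list members named, among them Foxa3, Etv2, Acan, Matn1, Notch1, Ncan and Pou2f1, were chosen after their values were seen. The members and lists were chosen with earlier results of these data known. Of the 13 SOXB neural progenitor genes, Sox1ot was not analysed here. Alternatives were RLE factors, library totals, other filters, DESeq2 1.42.0, the 6 libraries of a comparison, a replicate block and leaving out each library.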

Additional observations from a re-analysis of the deposited data

How the results depend on the processing

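Of 590 recomputed values, 580 kept their direction and their side of the threshold or, for counts and shares, stayed close to the main value. The rise of Sox1 in LAMP2A against VT was lost in DESeq2 (log2 fold change 0.16), and ran from 0.11 to 0.19 with single libraries left out. Sox9 in LAMP2A+DM-αKG against VT ran from 0.88 to 1.68 with single libraries left out, and Sox11 from -0.0032 to 0.11, which turned its direction without LAMP2A+DM-αKG replicate 2. With the 6 libraries of LAMP2A+DM-αKG and VT alone, Sox9 did not pass the filter and was not tested, and 6 of the 10 factors passed in place of 7. Counted per kb, the Sox2 share differed by -30.8 percentage points in LAMP2A against VT (main -42.6), by 31.9 in LAMP2A+DM-αKG against LAMP2A (main 41.8), and by 1.14 in LAMP2A+DM-αKG against VT, the reverse of the main -0.74. With a mean of at least 5 CPM required, Sox3 and Sox17 were not tested, and the other 8 factors passed in LAMP2A against VT and in LAMP2A+DM-αKG against LAMP2A, and 6 of them in LAMP2A+DM-αKG against VT.

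Libraries with the same replicate number did not deviate together (correlations -0.027 to 0.012), so the numbers were not used as pairs. With a replicate block, 12341, 12065 and 8462 genes passed in LAMP2A against VT, LAMP2A+DM-αKG against LAMP2A and LAMP2A+DM-αKG against VT, in place of 12355, 12081 and 8517, and the calls of the 10 factors did not change. The cause of these changes was not tested. Levels under 1 CPM, such as Sox9 in VT, rest on few reads.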

Other observations

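Neural crest markers, a lineage in which Sox9 and Sox10 act, moved in both directions in LAMP2A cells. Of 7 tested, 5 rose in LAMP2A against VT (Sox10, Tfap2a, Pax3, Snai2 and Ets1) and 2 fell (Foxd3 and Ngfr), and with DM-αKG the same 5 were lower and the same 2 higher. Of all genes 85.1% and 83.2% passed in these comparisons, so that 7 of 7 is near the background. The transcription factor gene Ets1 had 2.16 ± 0.18 CPM in LAMP2A+DM-αKG, 60.6 ± 0.60 CPM in LAMP2A and 1.06 ± 0.21 CPM in VT. Pax3, a factor of neural crest and muscle precursors, averaged 0.076, 3.30 and 0.012 CPM, and Tfap2a 0.776, 7.26 and 0.829 CPM in the same order. Sox10, the defining SOX factor of the lineage, stayed low at 0.111, 0.878 and 0.228 CPM. Sox10 and Pax3 passed the filter on low counts only through the LAMP2A libraries, which fixed their direction. Foxd3, which ES cells also express, had 25.5 ± 0.045 CPM in LAMP2A+DM-αKG, 9.20 ± 0.21 CPM in LAMP2A and 53.5 ± 3.07 CPM in VT.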
